A study of Mus musculus with 4 samples.

Results

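The genes described here carry glucose into the cell, move lactate and pyruvate across the plasma membrane and run the early, committing steps of glycolysis. They are the glucose transporters Slc2a1, Slc2a3 and Slc2a8, the monocarboxylate transporters Slc16a1 and Slc16a3, the hexokinases Hk1 and Hk2 and the phosphofructokinases Pfkl, Pfkm and Pfkp. They were taken from the deposited expression table by gene symbol. All 10 were found among its 31600 features, each as 1 feature. The samples were labelled as mouse spermatogonial stem cells, which renew themselves in the testis and give rise to sperm. They comprised 2 libraries of a group whose genotype label reads differentiation, and 2 libraries of a control group labelled WT. All 4 libraries carry the same cell type label, and all were made from total RNA depleted of ribosomal RNA. The 3 features with ribosomal-RNA-like sequence still took 18.3% and 17.7% of fragments in differentiation, against 22.6% and 20.8% in control. With the libraries rescaled without these features, 3 of the 10 genes were called higher and 3 lower, the same counts as with them. This rescaling assumes deposited values scaled to all fragments of a library, which was not established. The labels do not say how or over what time the differentiation group was obtained. They also do not say whether replicates were grown or dissected separately, so the p-values measure only the spread between these libraries, which may be technical.

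Glucose enters mammalian cells by facilitated diffusion through SLC2 transporters, is trapped by phosphorylation by a hexokinase, and is committed to glycolysis by phosphofructokinase. Lactate and pyruvate cross the membrane with a proton through SLC16 transporters. In the testis, spermatogonia outside the blood-testis barrier have access to blood glucose, while Sertoli cells are known to convert glucose to lactate and export it to the meiotic and postmeiotic germ cells behind the barrier. Male germ cells are also known to use their own forms of several glycolytic enzymes.

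The deposited values were FPKM, fragments scaled to the exonic length of a feature and by a factor per library. At the exonic lengths of GENCODE M21 these values came out as whole fragments at scales of 17772000 and 20363300 fragments for the differentiation libraries and 19461700 and 20650200 for the control libraries. The recovered fragments summed to 18434274 and 20862226 in differentiation and to 19906789 and 20671445 in control. Each scale lay below the sum of its library, so it was not the plain sum, and how it was set is not known. The members rest on 198 to 14140 fragments each per library. Markers of undifferentiated spermatogonia were present in both groups but mostly lower in differentiation: 10 of 14 tested markers fell and 1 rose. Their summed level was 52.4 and 52.8 FPKM in differentiation, against 152 and 156 FPKM in control. The marker that rose was Id4, with 12.3 and 12.6 FPKM in differentiation, against 3.0 and 2.89 FPKM in control. Spermatocyte markers rose in 12 of 12 (741 and 751 FPKM summed in differentiation, 152 and 156 FPKM in control). Fibroblast and peritubular markers fell in 12 of 14 and rose in 0 (95.2 to 101 FPKM in differentiation, 276 to 278 FPKM in control), leukocyte markers fell in 9 of 11 and rose in 1 (20.0 to 20.8 FPKM in differentiation, 71.2 to 74.5 FPKM in control), and erythroid markers fell in 5 of 5 tested (95.4 to 106 FPKM in differentiation, 520 to 526 FPKM in control). Sertoli markers went both ways, with 7 of 14 higher and 4 lower (172 to 184 FPKM in differentiation, 154 to 157 FPKM in control). Of the other lists, 8 of 10 markers of differentiating spermatogonia fell and 0 rose, 4 of 8 tested spermatid markers rose and 0 fell, 2 of 4 Leydig markers fell and 1 rose, and 1 of 4 endothelial markers fell and 0 rose. Markers of cells other than stem cells were thus present in both groups. The summed spermatocyte markers exceeded the summed undifferentiated markers in both differentiation libraries, while in control both sums were 152 and 156 FPKM. The lists hold different genes, so their sums do not compare numbers of cells. The haemoglobin gene Hbb-bs stood at 86.7 and 76.0 FPKM in differentiation, against 421 and 408 FPKM in control. Stra8, a gene of meiotic entry, stood at 139 and 141 FPKM in differentiation, against 241 and 233 FPKM in control, and the collagen gene Col1a1 at 20.9 and 19.9 FPKM in differentiation, against 73.0 and 78.5 FPKM in control. Every feature of the deposited table was above 0 in some library, so a marker's presence there does not show its expression in a given group. That table held 12 of 14 spermatid, 16 of 17 Sertoli and 7 of 8 Leydig markers, and all markers of the other lists. In such bulk libraries fewer cells of a type and less RNA per cell cannot be told apart, and the part of these shifts in the changes below was not tested.

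The comparison asks how the RNAs of glucose and lactate handling differ between differentiation and control. It was made with limma on log2(FPKM + 1) across 23138 features, those averaging 0.5 FPKM or more, and a gene was called at a Benjamini-Hochberg adjusted p under 0.05 over all of them. All 10 members passed this filter. Slc2a3, Pfkm and Pfkp rose, Hk2, Hk1 and Slc2a1 fell, and Slc2a8, Slc16a1, Slc16a3 and Pfkl did not pass. The 6 called members of 10 (60.0%) compare with 56.6% of all features called, 29.6% higher and 27.0% lower, so the number of calls does not set these genes apart. Their median log2 fold change was 0.14, against 0.01 over all features, and the median size of the change regardless of sign was 0.31 for the members, against 0.41 over all features. Groups did not overlap for any of the 10, where 79.9% of all features showed the same.

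**Figure D1:**
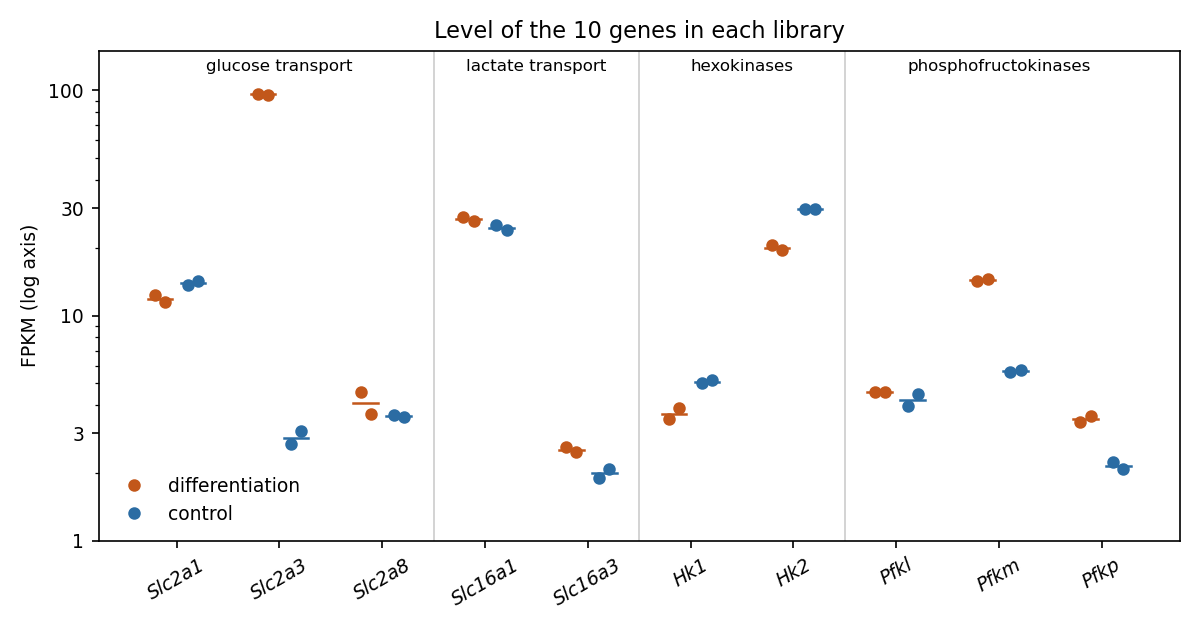
FPKM of each of the 10 genes on a log axis, with each point a library (differentiation left, control right) and each line the mean of a group. Slc2a3 sits at 95.8 and 96.2 FPKM in differentiation against 2.69 and 3.06 FPKM in control, while the means of the other genes lie within 2.55-fold of control.

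The make-up of glucose transporter RNA differed between the groups. Slc2a3 encodes GLUT3, a transporter of high affinity for glucose best known from neurons. It stood at 96.2 and 95.8 FPKM in the differentiation libraries, against 2.69 and 3.06 FPKM in the control libraries. Both differentiation libraries were far above both control libraries, by 33.4-fold in mean FPKM (log2 fold change 4.65 on the log2(FPKM + 1) scale, 95% interval 4.49 to 4.80; limma adjusted p = 6.53e-05). Of the 23138 features tested, 51 (0.22%) had a rise of this size or larger, Slc2a3 included. Spermatocyte markers rose in the same libraries, as given above, and their part in this rise was not tested.

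Slc2a1 encodes GLUT1, the basal glucose transporter of many proliferating cells. It had 12.3 and 11.5 FPKM in differentiation, against 13.7 and 14.3 FPKM in control. The groups were close but apart, with a log2 fold change of -0.21 (95% interval -0.35 to -0.07; limma adjusted p = 0.0256). This call did not hold without differentiation replicate 2, control replicate 1 or control replicate 2 (limma adjusted p = 0.0945, 0.0670 and 0.108), nor with a prior variance that ignores expression level (limma adjusted p = 0.0590). In the same comparison the median log2 fold change was -2.12 for erythroid, -1.38 for leukocyte and -1.13 for fibroblast markers. It was -1.40 for differentiating and -1.33 for undifferentiated spermatogonia, -1.31 for Leydig and -0.20 for endothelial markers. The medians of spermatocyte (2.12), Sertoli (0.32) and spermatid (0.18) markers were positive. The part of these shifts in the change of Slc2a1 was not tested.

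Slc2a8 encodes GLUT8, a transporter found mainly on internal membranes and abundant in testis. It measured 4.56 and 3.66 FPKM in differentiation, against 3.62 and 3.55 FPKM in control. One differentiation library was clearly higher and the other lay just above the controls, and the gene did not pass the test (log2 fold change 0.15, 95% interval -0.15 to 0.46; limma adjusted p = 0.305).

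Summed over these 3 genes, glucose transporter RNA reached 113 and 111 FPKM in differentiation, against 20.0 and 20.9 FPKM in control, 5.48-fold higher in the mean. Slc2a1 made up 10.9% and 10.4% of the sum in differentiation and 68.5% and 68.3% in control. For Slc2a3 the share was 85.1% and 86.3% in differentiation and 13.4% and 14.7% in control. The FPKM ratio of Slc2a3 to Slc2a1 was 7.79 and 8.31 in differentiation, against 0.196 and 0.215 in control, so the leading transporter RNA differed between the groups in every library. Such shares are a description: with 2 libraries against 2, an exact two-sided permutation test cannot go below p = 0.333.

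On GRCm38, GENCODE M21 places Slc2a3 on chromosome 6 at 122727809 to 122801640 on the minus strand, with 4 protein-coding transcripts whose starts lie up to 59378 bases apart. Gene-level FPKM does not tell which start was used. The processed pseudogene Gm4482 lies within this span on the same strand and shares no exonic base with it. It stood at 8.11 and 9.80 FPKM in differentiation, against 0.415 and 0.196 FPKM in control (log2 fold change 2.93; limma adjusted p = 3.97e-04), and it was named after its values were seen. Slc2a1 lies on chromosome 4 at 119108711 to 119137983 on the plus strand, and 105 of its 3506 exonic bases are shared with the antisense RNA Gm12868. This RNA, named after its values were seen, fell in the same direction as Slc2a1, with 12.1 and 10.8 FPKM in differentiation, against 16.9 and 14.1 FPKM in control (log2 fold change -0.40; limma adjusted p = 0.0371). The use of strand in counting is not known from the labels, so reads of the antisense RNA may be included, and its part in the Slc2a1 change was not tested.

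**Figure D2:**
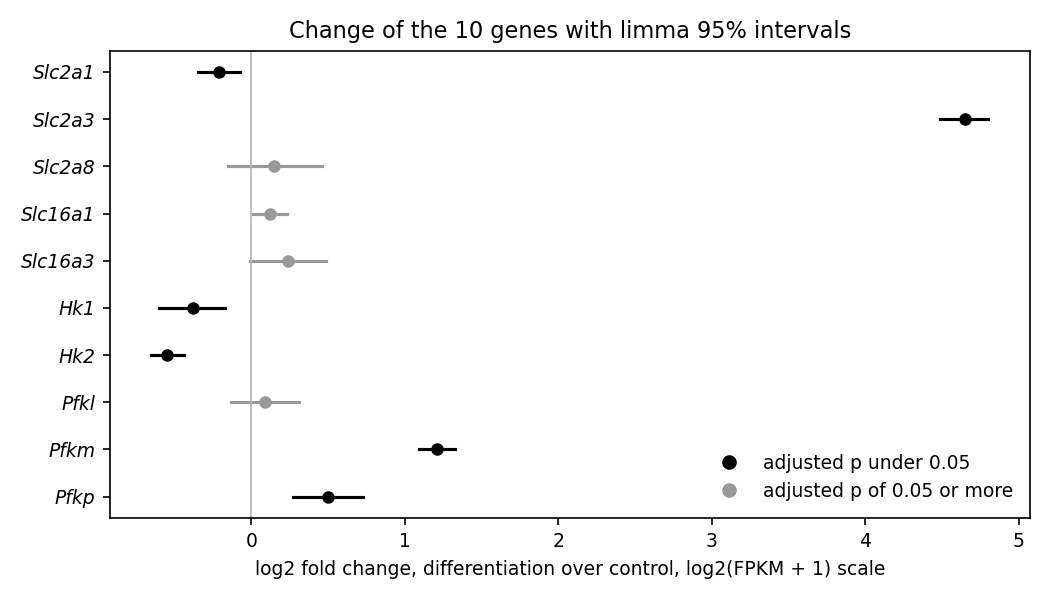
Log2 fold change of each gene, differentiation over control, with the limma 95% interval as a bar (black where the adjusted p is under 0.05, grey otherwise). Slc2a3 lies at 4.65 and Pfkm at 1.21, and the other 8 genes lie between -0.55 and 0.50.

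The lactate transporters did not pass the test. Slc16a1 encodes MCT1, which carries lactate and pyruvate in either direction. Its level was 27.4 and 26.3 FPKM in differentiation, against 25.2 and 24.1 FPKM in control. The libraries of differentiation were slightly above those of control (log2 fold change 0.12, 95% interval 0.01 to 0.23; limma adjusted p = 0.0646). The adjusted p was 0.0489 with median-of-ratios scaling, and the log2 fold change was -0.02 after quantile normalization, so neither a rise nor its direction can be stated.

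Slc16a3 encodes MCT4, known as the lactate exporter of strongly glycolytic cells. At 2.61 and 2.47 FPKM in differentiation, against 1.91 and 2.09 FPKM in control, it had the lowest mean of the 10 genes in both groups. Its log2 fold change was 0.24 (95% interval -0.01 to 0.49; limma adjusted p = 0.0895). It passed on recovered fragments with limma-voom (log2 fold change 0.31; limma adjusted p = 0.0257) and with a prior variance that ignores expression level (limma adjusted p = 0.0462). Slc16a1 made up 91.3% and 91.4% of the summed level of both transporters in differentiation, against 92.9% and 92.0% in control. The main lactate transporter RNA was thus Slc16a1 in all 4 libraries.

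Both hexokinases fell. Hk2 encodes the inducible hexokinase of muscle and of proliferating cells, which can bind mitochondria. It had 20.6 and 19.5 FPKM in differentiation, against 29.6 and 29.8 FPKM in control. The groups were well apart, at 0.674 of the control mean (log2 fold change -0.55, 95% interval -0.65 to -0.44; limma adjusted p = 9.22e-04), and the call held under all 16 alternatives.

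Hk1 encodes the more widely expressed hexokinase, of which mouse spermatogenic cells are known to make forms with their own first exons. It measured 3.46 and 3.89 FPKM in differentiation, against 5.02 and 5.17 FPKM in control. Again both differentiation libraries were lower, at 0.721 of the control mean (log2 fold change -0.38, 95% interval -0.60 to -0.17; limma adjusted p = 0.0165). The call was lost without differentiation replicate 1, control replicate 1 or control replicate 2 (limma adjusted p = 0.0672, 0.0680 and 0.0810).

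The balance between the hexokinases was about the same in all libraries. Hk2 took 85.6% and 83.4% of their summed level in differentiation, against 85.5% and 85.2% in control, while the sum itself was 24.0 and 23.4 FPKM in differentiation, against 34.7 and 35.0 FPKM in control. Fibroblast, leukocyte and erythroid markers fell in the same comparison, as did most markers of undifferentiated and differentiating spermatogonia, while spermatocyte markers rose. The part of these shifts in the lower hexokinase level was not tested.

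The promoters of Hk2 and of the farthest upstream Hk1 start are shown because both hexokinases fell. RefSeq sequence of GRCm38.p6 was found for 9 of the 10 members, all but Slc2a3. Each run below is the 250 bases before a transcript start, 5′ to 3′ on the gene's strand. Capitals mark every match, on either strand, to the GC box GGGCGG, the E-box CACGTG, the hypoxia response core ACGTG, the cAMP response element TGACGTCA, the CCAAT box CCAAT, the TATA box TATAAA or the MYB core CAACNG. An E-box also holds the hypoxia response core. Hk2 lies at chr6:82774455-82774704 and the Hk1 start at chr10:62379909-62380158, both on the minus strand.
Hk2: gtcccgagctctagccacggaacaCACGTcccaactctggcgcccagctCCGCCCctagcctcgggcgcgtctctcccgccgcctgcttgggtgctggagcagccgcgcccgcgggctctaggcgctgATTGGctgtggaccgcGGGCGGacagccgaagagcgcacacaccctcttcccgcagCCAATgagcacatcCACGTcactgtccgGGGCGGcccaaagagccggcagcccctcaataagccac
Hk1, farthest upstream start: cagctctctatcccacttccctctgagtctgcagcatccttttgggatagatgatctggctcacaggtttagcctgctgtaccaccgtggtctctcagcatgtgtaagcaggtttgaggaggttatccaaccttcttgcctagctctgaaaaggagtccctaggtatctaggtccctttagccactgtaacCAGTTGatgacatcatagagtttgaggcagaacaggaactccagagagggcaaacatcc

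The Hk2 window was 69.6% G and C and held 3 GC boxes, 2 hypoxia response cores and 2 CCAAT boxes. The Hk1 window was 49.6% G and C and held 1 MYB core and none of the other motifs. The other Hk1 window in RefSeq, at chr10:62340422-62340671, was 62.8% G and C, also held 1 MYB core, and overlaps 121 annotated exonic bases of the gene. The window of Slc2a1, which also fell, is not shown. It held 2 GC boxes, 1 hypoxia response core and 1 MYB core. Among the members not called, the Slc16a1 window held 1 GC box, 1 E-box and 2 matches to the hypoxia response core. That of Slc16a3 held 1 GC box and 2 hypoxia response cores, that of Slc2a8 4 CCAAT boxes and 1 MYB core, and that of Pfkl none. A link between motifs and changes was not tested. Over the 32851 RefSeq promoter windows of this length, 32.7% held a GC box, 16.6% a hypoxia response core, 33.8% a CCAAT box, 29.3% the MYB core, 12.4% the TATA box, 6.02% an E-box and 1.55% the cAMP response element. Hk1 has 18 protein-coding transcripts with 10 different starts over 61515 bases of chromosome 10 in GENCODE M21. The deposited gene-level values do not separate them. Of the 8532 exonic bases of Hk1, 157 are shared with the antisense gene Hk1os, which was below 1 FPKM in all libraries.

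Of the phosphofructokinase subunits the muscle and the platelet form rose. The enzyme is a tetramer built from muscle (Pfkm), liver (Pfkl) and platelet (Pfkp) subunits, which differ in their regulation. Pfkm stood at 14.2 and 14.6 FPKM in differentiation, against 5.60 and 5.73 FPKM in control. It was 2.55-fold higher in mean FPKM (log2 fold change 1.21, 95% interval 1.09 to 1.33; limma adjusted p = 2.19e-04), a rise reached by 7.36% of all features tested, and the call held under all 16 alternatives.

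Pfkp was at 3.38 and 3.57 FPKM in differentiation, against 2.23 and 2.09 FPKM in control. Both differentiation libraries were higher, by 1.61-fold in the mean (log2 fold change 0.50, 95% interval 0.27 to 0.73; limma adjusted p = 9.39e-03). The call was lost without differentiation replicate 2 or control replicate 2 (limma adjusted p = 0.0610 and 0.0506).

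Pfkl had 4.58 FPKM in both differentiation libraries, against 3.98 and 4.51 FPKM in control. The higher control library came close to the differentiation level, and the gene did not pass the test (log2 fold change 0.09, 95% interval -0.13 to 0.31; limma adjusted p = 0.380). After quantile normalization its log2 fold change was -0.005.

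The 3 subunits together came to 22.1 and 22.8 FPKM in differentiation, against 11.8 and 12.3 FPKM in control. Pfkm held the largest share in all 4 libraries, at 64.1% and 64.3% in differentiation and 47.4% and 46.5% in control. Pfkl made up 20.7% and 20.1% in differentiation, against 33.7% and 36.5% in control. Pfkp made up 15.2% and 15.6% in differentiation, against 18.9% and 17.0% in control, so its share was lower in differentiation although its level was higher. The annotated exons used to scale Pfkp add up to 13401 bases and those of Pfkm to 3340 bases, so the levels compared between them depend on how much of the Pfkp annotation was transcribed.

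Among the genes that rose, promoters are shown for Pfkm, at its farthest upstream start and at the next start downstream, and for Pfkp, under the same marking. For Slc2a3 no such sequence was found. The Pfkm windows lie at chr15:98092339-98092588 and chr15:98108221-98108470 on the plus strand, and the Pfkp window lies at chr13:6648772-6649021 on the minus strand.
Pfkm, farthest upstream start: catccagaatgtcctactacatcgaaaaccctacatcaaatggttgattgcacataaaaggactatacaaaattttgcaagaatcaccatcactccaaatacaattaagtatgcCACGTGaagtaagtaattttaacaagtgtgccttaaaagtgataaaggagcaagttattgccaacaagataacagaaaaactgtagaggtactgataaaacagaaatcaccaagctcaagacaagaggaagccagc
Pfkm, next start downstream: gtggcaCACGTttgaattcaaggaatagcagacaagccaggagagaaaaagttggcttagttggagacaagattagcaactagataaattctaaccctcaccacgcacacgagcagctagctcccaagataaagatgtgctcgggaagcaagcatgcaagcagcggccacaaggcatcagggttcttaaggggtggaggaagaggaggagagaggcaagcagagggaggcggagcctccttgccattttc
Pfkp: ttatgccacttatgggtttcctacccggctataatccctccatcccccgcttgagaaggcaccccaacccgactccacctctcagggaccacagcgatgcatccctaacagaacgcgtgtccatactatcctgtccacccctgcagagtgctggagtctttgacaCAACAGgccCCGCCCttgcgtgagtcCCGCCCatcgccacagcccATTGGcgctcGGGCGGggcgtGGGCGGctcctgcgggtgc

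The upstream Pfkm window was poor in G and C (36.4%) and held 1 E-box, whose letters also give its 2 matches to the hypoxia response core. At the next start the window was 51.2% G and C and held 1 hypoxia response core. The Pfkm windows not shown, at chr15:98108306-98108555 and chr15:98111810-98112059, were 60.4% and 52.8% G and C. They held none of the motifs. The Pfkp window was 62.8% G and C, with 4 GC boxes, 1 CCAAT box and 1 MYB core. Pfkm has 5 protein-coding transcripts whose starts lie up to 15877 bases apart, and gene-level FPKM does not tell from which the rise came. In addition, 341 of the 3340 exonic bases of Pfkm are shared with the non-coding RNA Gm26513 on the same strand, which stood at 5.49 and 4.72 FPKM in differentiation, against 2.13 and 1.93 FPKM in control (log2 fold change 1.01; limma adjusted p = 2.34e-03). Pfkp shares 748 exonic bases with Pitrm1, a peptidase gene on the other strand, which had 11.5 and 11.0 FPKM in differentiation, against 16.7 and 17.2 FPKM in control. Pfkm also shares 18 exonic bases with Senp1 on the other strand, which had 13.3 and 13.6 FPKM in differentiation, against 8.56 and 9.05 FPKM in control. These neighbours were named after their values were seen, and their part in the changes of Pfkm and Pfkp was not tested.

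**Figure D3:**
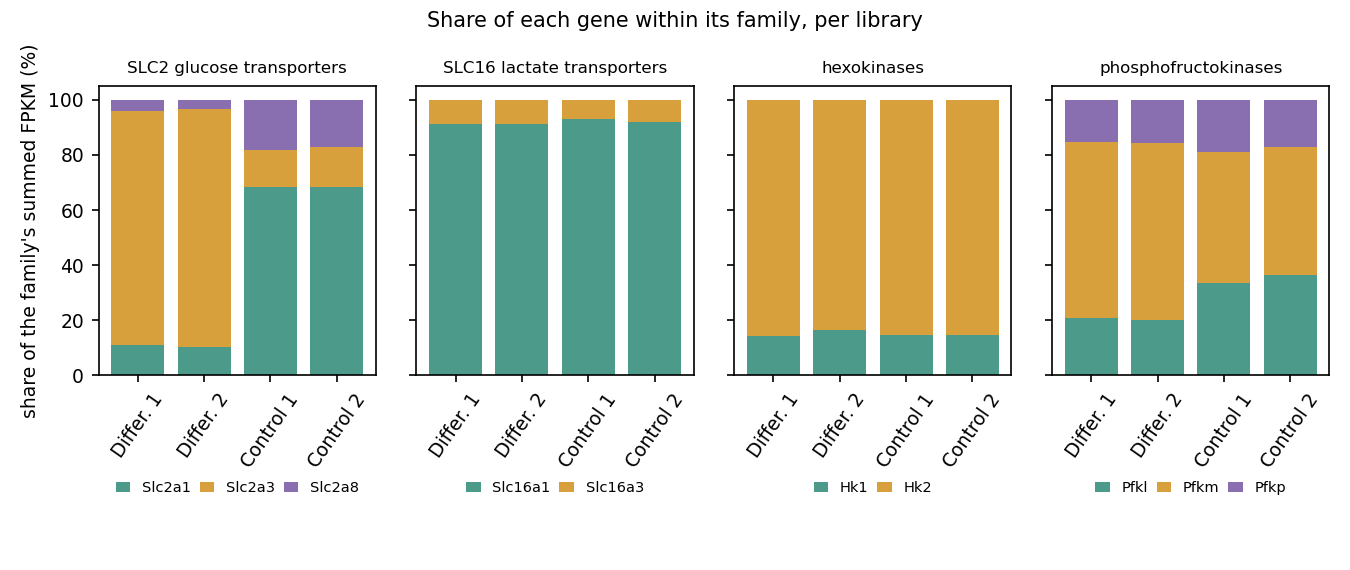
Share of each gene in the summed FPKM of its family, in percent from 0 to 100, for the 2 differentiation and the 2 control libraries. Slc2a3 takes 85.1% and 86.3% of the glucose transporter sum in differentiation against 13.4% and 14.7% in control, and the Hk2 share stays between 83.4% and 85.6%.

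The order of levels within a group also differed. In differentiation the mean FPKM ran from Slc2a3 (96.0) through Slc16a1 (26.8), Hk2 (20.0), Pfkm (14.4), Slc2a1 (11.9), Pfkl (4.58), Slc2a8 (4.11), Hk1 (3.67) and Pfkp (3.47) to Slc16a3 (2.54). In that order, Slc2a8 could not be told from Hk1, nor Hk1 from Pfkp, since their libraries overlapped. In control it ran from Hk2 (29.7) through Slc16a1 (24.6), Slc2a1 (14.0), Pfkm (5.66), Hk1 (5.10), Pfkl (4.24), Slc2a8 (3.58), Slc2a3 (2.87) and Pfkp (2.16) to Slc16a3 (2.00), with overlap between Pfkp and Slc16a3. Slc2a3 was thus the first of the 10 in differentiation and the eighth in control, in levels per exonic length.

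The protein-coding genes most alike in level and change were sought by Euclidean distance on log2(FPKM + 1) over the 4 libraries, among 14396 candidates. For Slc2a3, the member with the highest fold change, these were Cox8c, a testis subunit of cytochrome c oxidase (distance 0.366), Sord, the sorbitol dehydrogenase (0.461), and Smim24 (0.520). Cox8c had 104 and 101 FPKM in differentiation, against 2.13 and 2.43 FPKM in control. For Hk2, the member with the lowest fold change, they were Heg1, a membrane protein of heart and vessel development, Isg20l2, a nucleolar exonuclease, and Eif4ebp2, a repressor of translation initiation (distances 0.0642, 0.0866 and 0.0893). With 4 libraries in 2 groups such a distance measures level and fold change only.

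The other genes of the pathway were taken from 9 lists with 117 genes, of which 115 were in the table and 100 were tested. Of these, 34 rose and 41 fell (75.0% called, against 56.6% of all features), with a median log2 fold change of -0.04. Among the 15386 features averaging 2 FPKM or more, 5354 were called higher and 4760 lower, a larger share than over all features. The background was not matched to the lists by level. Among the other facilitative transporters of the SLC2 family, 3 of 7 tested rose and 2 fell (median 0.05). Slc2a5, the fructose transporter GLUT5, stood at 13.4 and 13.6 FPKM in differentiation, against 0.302 and 0.427 FPKM in control (log2 fold change 3.41; limma adjusted p = 1.19e-04). The control levels of Slc2a5 lay below the pseudocount of 1, so its log2 value understates the change in FPKM and cannot be ranked against that of Slc2a3. Slc2a4, the insulin-responsive transporter GLUT4, rose by 1.38 on the log2 scale. Slc2a2 had 1.35 and 1.41 FPKM in differentiation, against 2.52 and 2.32 FPKM in control. Slc2a10 had 0.599 and 0.413 FPKM in differentiation, against 1.21 and 1.11 FPKM in control. Both fell by 0.52 on the log2(FPKM + 1) scale, which understates changes at such low levels, more so for Slc2a10. The sodium-coupled glucose transporters were mostly too low to test: Slc5a10 and Slc5a2 were tested and neither passed (log2 fold changes 0.25 and 0.16).

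Of the other SLC16 transporters and the chaperones that bring them to the membrane, 4 of 12 tested rose and 4 fell (median -0.10). Bsg, which encodes basigin, the chaperone of MCT1 and MCT4, stood at 126 and 125 FPKM in differentiation, against 81.2 and 81.8 FPKM in control (log2 fold change 0.61; limma adjusted p = 2.56e-04), above the level of Slc16a1 in each library. Slc16a7, the transporter MCT2 of high affinity for lactate and pyruvate, was at 2.35 and 2.68 FPKM in differentiation, against 0.143 and 0.225 FPKM in control (log2 fold change 1.57; limma adjusted p = 8.86e-04). Slc16a7 also lay below the pseudocount of 1 in control, so its log2 value understates the change in FPKM. Nptn, the basigin relative neuroplastin, and Slc16a13 fell by 0.42 and 1.02 on the log2 scale.

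Genes that act beside the hexokinases fell in 2 of 3 tested and rose in 0 (median -0.31). These were Adpgk, an ADP-dependent glucokinase, and Hk3, a hexokinase of leukocytes, at -0.31 and -0.48, while Gckr, the inhibitor of glucokinase, did not pass (0.32; limma adjusted p = 0.0948). Leukocyte markers fell with Hk3, and their part in it was not tested.

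Genes that set or oppose the phosphofructokinase step rose in 3 of 6 tested and fell in 1 (median 0.32). Fbp1, the fructose bisphosphatase that runs the step backwards in gluconeogenesis, stood at 33.4 and 30.3 FPKM in differentiation, against 0.0302 and 0.0854 FPKM in control (log2 fold change 4.95; limma adjusted p = 8.20e-05). With control levels this far below the pseudocount of 1, that value understates the change in FPKM. Pfkfb2 and Pfkfb4, which make and break down the activator of phosphofructokinase, rose by 0.61 and 0.79, and Tigar, which lowers that activator, fell by 0.76.

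**Figure D4:**
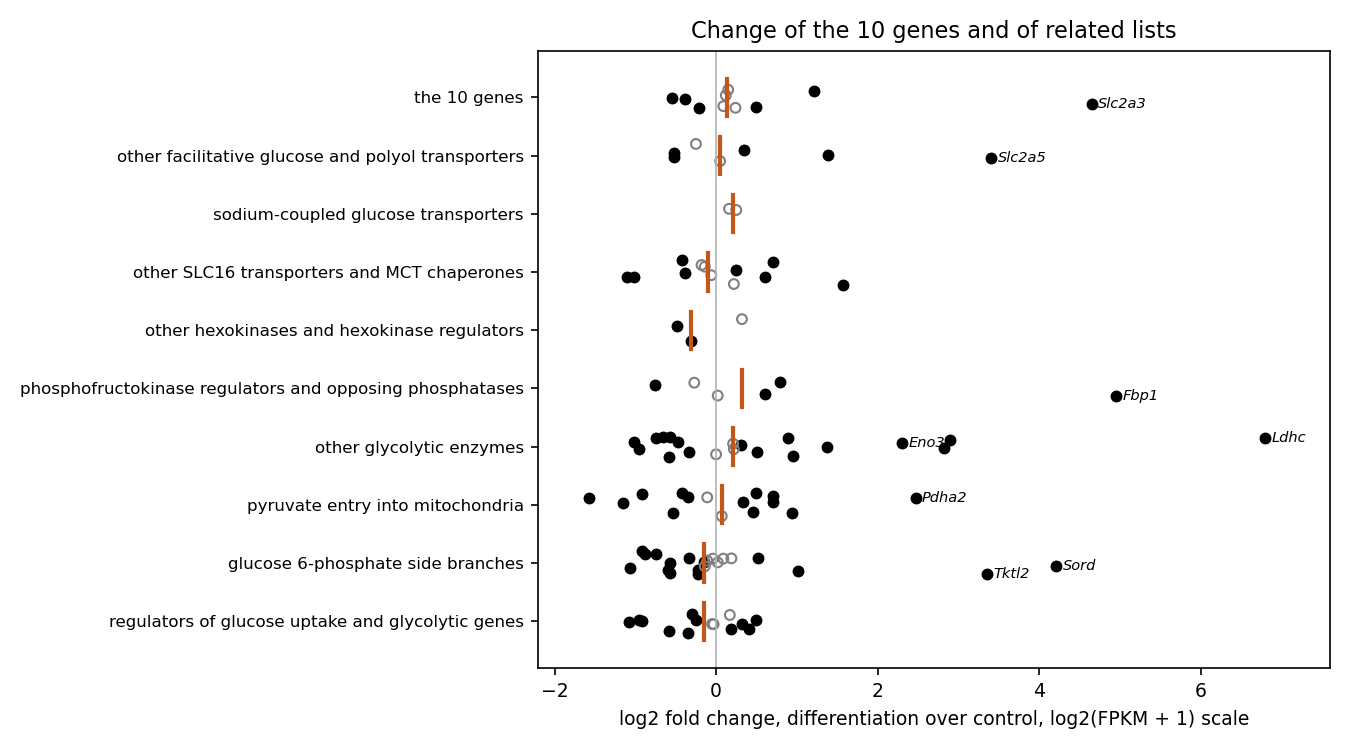
Log2 fold change, differentiation over control, of the 10 genes and of each tested gene of the 9 related lists (filled where the adjusted p is under 0.05, open otherwise; orange bars are medians). List medians lie between -0.31 and 0.32, while Ldhc (6.80), Fbp1 (4.95), Slc2a3 (4.65) and Sord (4.21) lie far to the right.

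The other glycolytic enzymes rose in 9 of 20 tested genes and fell in 8 (median 0.21). Gpi1, the isomerase that acts between hexokinase and phosphofructokinase, fell by 1.02 on the log2 scale. Ldhc, the lactate dehydrogenase of germ cells, Eno3 and Ldha rose by 6.80, 2.30 and 0.89. The symbol Aldoa was held by 2 features: the one with the higher level had 38.2 and 39.4 FPKM in differentiation, against 57.4 and 58.5 FPKM in control, and the other, ENSMUSG00000114515, had 5.85 and 5.78 FPKM in differentiation, against 0.450 and 0.424 FPKM in control. In the list for entry of pyruvate into mitochondria 7 of 15 rose and 6 fell (median 0.07). Pdha2, the germ cell copy of the pyruvate dehydrogenase alpha subunit, had 33.0 and 31.9 FPKM in differentiation, against 5.55 and 4.61 FPKM in control, whereas Pdha1, its X-linked somatic counterpart, had 6.09 and 6.69 FPKM in differentiation, against 15.2 and 15.5 FPKM in control. Dlat, another subunit of the complex, rose by 0.94 on the log2 scale, and Pdk1, a kinase that inhibits it, fell by 1.57.

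In the authors' deposited table, whose test is not named, the same 6 members had an adjusted p under 0.05, in the same directions, and the other 4 did not. Its log2 fold changes were 5.06 for Slc2a3, 1.35 for Pfkm and 0.69 for Pfkp, and -0.57 for Hk2, -0.47 for Hk1 and -0.23 for Slc2a1. The authors' deposited table called 42.3% of its features. Both tests used the same libraries, so this overlap is no independent support.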

How the data were processed

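Long RNA was measured in 4 libraries. Per the submitters' processing notes, the tool was HISAT2 and the build GRCm38. These notes, as used here, name no annotation, counting tool or strand setting. The authors deposited 1 table with the FPKM of each library, their log2 fold change, and a p-value and adjusted p-value from a test not named there.

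The symbols came from that table, and a symbol held by 2 features was read from the higher one. FPKM was multiplied by merged exonic length in GENCODE M21, which matched 31536 of 31600 features, and by a scale per library at which 96.2% of values under 300 fragments were whole within 0.05 fragments. Intervals on so few libraries carry little precision, and depth was similar in all of them.

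Groups were compared with limma 3.58.1 (R 4.3.3) on log2(FPKM + 1). The prior variance followed mean expression, no term besides group was fitted, and the test was two-sided over features averaging 0.5 FPKM or more, with 2 residual and 2.14 prior degrees of freedom. Fold changes on this scale understate those of low genes. Tables and figures used Python 3.11.15, pandas 2.3.3 and matplotlib 3.10.9.

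The members and the lists were chosen with earlier results of these data known. The text names all members and up to 4 genes of each pathway list with the smallest limma p. It also names the 3 protein-coding features nearest to the members with the highest and lowest fold change, and others as marked. Marker genes named were among the tested genes of their list with the highest mean FPKM. Aldoa, as a symbol held by 2 features, Hk1os, as an overlapping gene, and Id4, as the only marker of its list that rose, were named outside these rules. The 16 alternatives varied pseudocount, filter, scaling, prior variance, a replicate block, each library left out, a minimum fold change and limma-voom on recovered fragments.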

Additional observations from a re-analysis of the deposited data

How the results depend on the processing

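Under the 16 alternatives, Slc2a3, Hk2 and Pfkm kept their direction and their call, with log2 fold changes from 4.57 to 5.03, from -0.70 to -0.51 and from 1.10 to 1.33. Slc2a8 and Pfkl were called in none of them. Quantile normalization turned the sign of Slc16a1 (-0.02) and Pfkl (-0.005), which were not called; the cause was not tested. With each library left out in turn, 2 to 3 members were called higher and 1 to 2 lower, and a lone library was then assumed to vary like the other group. A minimum fold change of 1.2 left 1 member called lower (Hk2) and 2 higher (Slc2a3 and Pfkm), with 4409 features higher and 3572 lower overall and 26 genes of the pathway lists lower, since it asks for more than a difference. Scaling moved the median log2 fold change of all features from 0.01 to as low as -0.09 (quantile normalization). The 6848 features higher and 6246 lower became 5792 and 7601 after quantile normalization and 6064 and 7266 after median centring. They were 6932 and 6168 with median-of-ratios scaling, and 6264 and 6846 without the ribosomal-RNA-like features. The last setting assumes values scaled to all fragments of a library, which the recovered scales do not match. Which direction holds more calls thus depends on the scaling. The replicate numbers are not stated to mark a shared culture or day, and differences between libraries 1 and 2 were uncorrelated between the groups (r = -0.000408 over 23138 features). With the replicate number as a block, 6510 features were higher and 5788 lower, and of the 6 member calls that of Slc2a1 was lost (limma adjusted p = 0.0518). Depth limits Slc16a3 and Slc2a8 most, at 198 to 267 and 226 to 260 fragments per library.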

Other observations

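Branches that lead away from glucose phosphate fell in 11 of 21 tested genes and rose in 4 (median log2 fold change -0.15, against 0.01 over all features). The rises were large for single genes. Sord, which turns sorbitol into fructose, stood at 82.4 and 84.9 FPKM in differentiation, against 3.67 and 3.46 FPKM in control (log2 fold change 4.21; limma adjusted p = 6.21e-05). Tktl2, a transketolase-like gene, had 31.3 and 31.2 FPKM in differentiation, against 2.27 and 2.04 FPKM in control (3.35; limma adjusted p = 8.85e-05). Gfpt1, the entry enzyme of hexosamine synthesis, rose by 1.02 and Pgm2, a phosphoglucomutase, fell by 0.59.

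Regulators of glucose uptake and glycolytic genes fell in 7 of 14 tested and rose in 4 (median -0.15). Arrdc4, an arrestin-domain protein that limits glucose uptake, had 4.67 and 4.18 FPKM in differentiation, against 9.60 and 8.88 FPKM in control (log2 fold change -0.92; limma adjusted p = 1.39e-03). Myc, a transcription factor that raises glycolytic genes in many proliferating cells, had 6.69 and 6.38 FPKM in differentiation, against 10.4 and 10.1 FPKM in control (-0.58; limma adjusted p = 1.62e-03). Egln2, a prolyl hydroxylase of hypoxia-inducible factors, and Mlxip, a glucose-sensing transcription factor, rose by 0.50 and 0.41.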
